A study of Danio rerio with 12 samples.

Results

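The genes described here encode the machinery by which the endoplasmic reticulum (ER) takes in, folds, checks and sends on proteins, together with the sensors of the unfolded protein response. They were picked by gene name, from name stems such as *sec* followed by a digit, *srp*, *ssr*, *spcs*, *pdia*, *calr*, *canx*, *edem*, *derl*, *herpud*, *xbp1*, *atf6*, *ern1* and *manf*. No measured value is part of this name rule, but earlier results of these data were known when the genes were chosen. This gave 69 genes of 22962 in the table, and all 69 had a mean of at least 1 CPM (reads on the gene scaled to the total of its library) over the 9 libraries and were tested, among 16347 genes tested in all. Of the 69, 67 had at least 10 reads in every library, whereas *SEL1L3* and *pdia2* did not.

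RNA-seq was carried out on GFP+ cells that FACS recovered from transected heads of *mpeg1:GFP* zebrafish larvae, a transgenic line in which the *mpeg1* promoter drives GFP in microglia and peripheral macrophages. In the 2 hpi group (3 libraries, replicates 1, 2 and 4), the optic tectum of *mpeg1:GFP* larvae at 4 dpf was pierced with a pin and cells were collected 2 h post injury. In the sham group (6 libraries), the cells came from sham *mpeg1:GFP* larvae of the same age, collected at the same time. Each library was a pool of about 180 larvae and came from amplified cDNA, and 3 further libraries of the 2 hpi group were not analysed here. The study set these 3 aside for high duplication, low mapping rates and poor clustering with the other libraries in a principal component analysis.

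Proteins with a signal sequence are recognised by the signal recognition particle (SRP) and enter the ER through the Sec61 channel, where they are trimmed, glycosylated and folded with the help of lectin chaperones and disulfide isomerases. Proteins that fail to fold are returned to the cytosol and degraded (ER-associated degradation, ERAD), and proteins that fold leave in vesicles coated with COPII. When unfolded proteins build up, the sensors IRE1 (encoded by *ern1*), ATF6 and PERK start the unfolded protein response. Macrophages, which secrete cytokines and proteases, rely on the ER machinery when they are activated.

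Libraries held 6754699 to 7156275 reads on genes at 2 hpi and 6868772 to 8180104 in sham, and 3 reads were worth 0.349 to 0.466 CPM. In a principal component analysis of all tested genes, the library farthest from its group was sham replicate 3, at -64.3 on the first component and -60.7 on the second. Summed CPM of 15 macrophage-lineage markers was 20200.0 to 24300.0 at 2 hpi and 16600.0 to 21800.0 in sham, and 14 of the 15 were higher at 2 hpi, 3 of them with FDR<0.01 (*spi1b*, *slc7a7* and *ctss2.1*). Markers of cells that secrete matrix or digestive enzymes, which carry much ER, summed to 87.4 to 92.9 CPM at 2 hpi and 81.2 to 125.2 CPM in sham, and 7 of the 10 tested were lower at 2 hpi. Neuron markers summed to 55.6 to 97.5 CPM at 2 hpi and 40.1 to 116.1 CPM in sham, with 2 of 6 higher, and erythrocyte markers to 97.4 to 151.2 CPM at 2 hpi and 75.9 to 168.6 CPM in sham, with 5 of 5 higher. Keratinocyte markers summed to 328.3 to 395.7 CPM at 2 hpi and 278.0 to 337.5 CPM in sham, with 5 of 6 higher, and neutrophil markers to 8060.0 to 10510.0 CPM at 2 hpi and 7738 to 10890.0 CPM in sham, with 3 of 6 higher and 1 of them, *mmp13a*, at FDR<0.01 (log2FC 0.77). Whether these differences in markers had a part in the ER results was not tested.

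Of the 69 ER genes, 2 rose at 2 hpi with FDR<0.01 by limma (Benjamini-Hochberg adjustment over all tested genes), the ERAD mannosidase gene *edem3* and the COPII coat gene *sec23b*, and 0 fell. That is 2.9% of the ER genes, against 2.09% of all tested genes that were higher and 0.593% that were lower at this threshold, so the share called was near the background. At FDR<0.05, 6 ER genes were higher (8.7%, against 3.55% of all tested genes) and 0 were lower (against 1.96%). The ER genes had a median level of 57.2 CPM and a median SE of 0.18, against 13.6 CPM and 0.31 over all tested genes. Of 4378 tested genes of a like level (mean CPM between the quartiles of the ER genes), 164 were higher at FDR<0.01 and 276 at FDR<0.05. As a share, the like-level genes thus lay above the ER genes at FDR<0.01. At FDR<0.05 their share lay between those of all tested genes and of the ER genes. Lower at these thresholds were 46 and 145 of them. The count of 6 ER genes changed with the scaling, the test and single libraries. With library size alone it was 2 (against 2.53% of all tested genes), since *sec24d*, *manf*, *sec61a1l* and *srp54* had FDR of 0.0682, 0.0759, 0.0925 and 0.117, and 1 gene, *sec16b*, was lower (FDR = 0.0473). With 1 library left out it was 2 to 7, against 2.2 to 3.84% of all tested genes. It was 2 (2.9%) without sham replicate 4, against 2.9% of all tested genes. It was also 2 without 2 hpi replicate 1, 2 or 4, against 2.2%, 2.79% and 2.25%. RLE scaling kept it at 6 and edgeR gave 5, each against 3.59% of all tested genes. DESeq2 gave 8 (against 4.5%) and a replicate block 9 (against 4.66%). With DESeq2, 1 ER gene was also lower, again *sec16b* (FDR = 0.0299), against 2.95% of all tested genes. At an unadjusted limma p below 0.05, 14 ER genes were higher and 2 were lower. The 14 were 20.3%, against 8.77% of all tested genes and 13.6% of those of a like level. The 2 were 2.9%, against 8.61% and 11.7%. With library size alone, 8 ER genes were higher and 5 were lower at this p. The matching shares of all tested genes were not counted, so these counts have no background beside them. In bulk libraries such as these, a change in the share of a cell type and a change in RNA per cell cannot be told apart.

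Most of the 69 genes had a small positive log2FC (2 hpi over sham). The log2FC was above 0 for 51 of 69 (73.9%, against 48% of all tested genes) and its median was 0.18, with a range of -1.19 to 1.08, whereas the median over all tested genes was -0.02. Over the 4378 tested genes whose mean CPM lay between the quartiles of the ER genes, the median was 0.02 and 2286 were above 0. In 28 of the 69 genes the log2FC was less than 0.2 in size, and 7 were above 1.5-fold higher. Past the same bound in the other direction were *sec16b* and *sec22c*, at 0.439 and 0.632 of sham. Shares of all tested genes at these bounds were not counted, so these numbers have no background beside them. With the libraries scaled by their size alone, the median of all tested genes moved to -0.13 and that of the ER genes to 0.06, and 40 ER genes (58%, against 37.2% of all tested genes) were then above 0. The gap between the medians was 0.20 with the deposited scaling and 0.19 with library size alone. A change of scaling moves the log2FC of all genes by nearly the same amount, so this gap could hardly have changed.

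**Figure D1:**
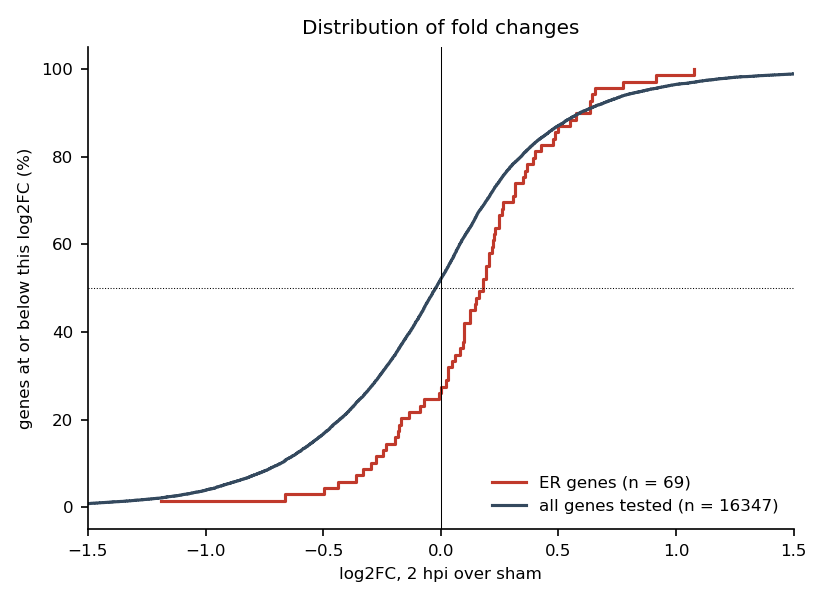
The cumulative share of genes (y axis, %) at or below each log2FC of 2 hpi over sham (x axis) is plotted for the 69 ER genes (red) and for all 16347 tested genes (blue). The red line crosses 50% at a log2FC of 0.18 and the blue line at -0.02, and the lines meet again towards the right, where few ER genes lie.

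The libraries did not separate on the ER genes as a whole. The median deviation of the 69 genes from their sham means (log2 scale) was 0.18, 0.24 and 0.12 in 2 hpi replicates 1, 2 and 4, whereas the 6 sham libraries ran from -0.16 in replicate 5 to 0.17 in replicate 3. Sham replicate 3 thus lay above 2 hpi replicate 4. Sham replicate 5 held the lowest value of 22 of the 69 genes and sham replicate 3 the highest value of 15, as many as 2 hpi replicate 1. The ER genes took 0.766 to 0.836% of all CPM at 2 hpi and 0.673 to 0.832% in sham, so the ranges overlapped. Without sham replicate 3 the median log2FC of the ER genes was 0.20 and 51 genes were above 0, and without sham replicate 5 it was 0.13 with 48 above 0.

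**Figure D2:**
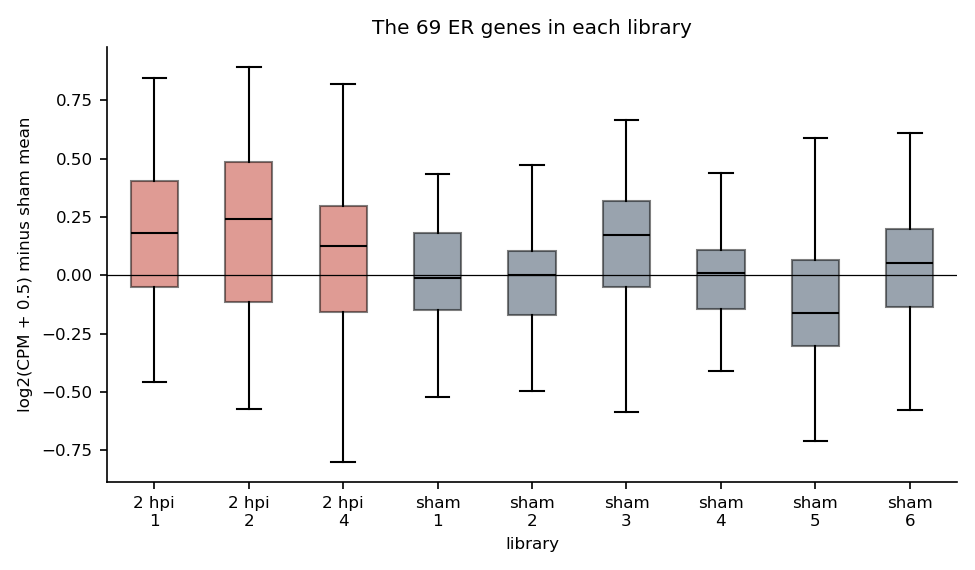
Each box shows the deviation of the 69 ER genes from their sham means (y axis, log2(CPM + 0.5) scale) in 1 library (x axis), with 2 hpi libraries in red and sham libraries in grey, the line at the median, the box from the first to the third quartile and whiskers up to 1.5 times the box, with points beyond them not drawn. The medians of the 2 hpi libraries are 0.18, 0.24 and 0.12, and that of sham replicate 3, at 0.17, lies among them.

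The gene with the lowest FDR was *edem3* (ENSDARG00000074129), which encodes a protein of the EDEM family that trims mannose from misfolded glycoproteins and so marks them for ERAD. Its level was 126.5, 124.1 and 149.0 CPM in the 2 hpi replicates 1, 2 and 4, and the lowest, median and highest sham values were 59.8, 70.4 and 90.2 CPM. The lowest 2 hpi library thus exceeded the highest sham library. The means were 133 ± 13.7 CPM at 2 hpi (SD, n = 3) and 70.9 ± 11.1 CPM in sham (SD, n = 6), and limma gave a log2FC of 0.91 ± 0.15 (SE; 95% interval 0.59 to 1.23) with FDR = 0.000524. An exact permutation test (two-sided, over the 9 libraries) gave p = 0.0119, the smallest this design can give. Without 2 hpi replicate 4, where the gene was highest, the log2FC was 0.83 and the limma FDR 0.0114.

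The other members of the EDEM family differed less. *edem1*, a known target of the unfolded protein response in mammals, had 113.0, 121.7 and 82.3 CPM at 2 hpi and a sham range of 70.2 to 100.4 CPM with a median of 78.3 CPM. Replicate 4, which was the highest for *edem3*, was the lowest of the 2 hpi libraries for *edem1* and lay within the sham range. The log2FC of *edem1* was 0.36 ± 0.16 (SE) with a limma FDR of 0.25. *edem2* averaged 20.5 ± 0.965 CPM at 2 hpi and 19.9 ± 4.8 CPM in sham (SD, n = 3 and 6), with a log2FC of 0.08 and a 95% interval of -0.43 to 0.59.

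The remaining 8 genes grouped with ERAD did not pass FDR<0.05. *herpud2*, whose product is a ubiquitin-like membrane protein related to HERPUD1, had 40.4, 52.0 and 48.1 CPM at 2 hpi, and a sham median of 27.9 CPM with a range of 26.1 to 43.4 CPM. The single sham library within the 2 hpi range was replicate 3, and the other 5 lay below it. The log2FC was 0.64 ± 0.20 (SE) with a limma FDR of 0.065, the highest among ERAD genes after *edem3*. *herpud1*, which encodes the better known ER stress protein that scaffolds the ERAD ligase, had 199.2, 183.5 and 161.0 CPM at 2 hpi and 151.0 to 185.4 CPM in sham, and its log2FC of 0.10 had a 95% interval of -0.16 to 0.36. *derl3*, a derlin of the retrotranslocation channel, had a log2FC of 0.48 ± 0.22 (SE, FDR = 0.241), with 2 of 3 libraries at 2 hpi above the sham maximum. The ligase *syvn1* (HRD1) and its partner *sel1l* had log2FC of -0.07 and -0.30, and *sel1l* averaged 43.4 ± 6.72 CPM at 2 hpi and 53.8 ± 10.2 CPM in sham (SD, n = 3 and 6; FDR = 0.435). Of all 11 genes grouped with ERAD by name, 8 had a positive log2FC, the median was 0.10, and *SEL1L3*, a relative of *sel1l* whose role in ERAD is not given in the sources used here, had 1 to 31 reads a library.

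The second gene past the threshold was *sec23b* (ENSDARG00000019360), one of the paralogues encoding SEC23, the COPII subunit that activates the GTPase SAR1 and binds SEC24. It had 129.5, 106.7 and 128.4 CPM in the 2 hpi replicates 1, 2 and 4, and the lowest, median and highest sham values were 35.0, 61.1 and 77.4 CPM. Again the groups did not overlap. The means were 122 ± 12.9 CPM at 2 hpi (SD, n = 3) and 58.8 ± 14.2 CPM in sham (SD, n = 6), the log2FC was 1.08 ± 0.19 (SE; 95% interval 0.68 to 1.48) and the limma FDR 0.00102. The exact permutation p was again 0.0119. This p adds little to the lack of overlap, and genes not past the threshold, such as *sec24d*, *manf*, *sec61a1l* and *ern1*, had the same value. The limma FDR was 0.0118 without 2 hpi replicate 1 and 0.0135 without 2 hpi replicate 4, with log2FC of 1.03 in both cases. Sham replicate 3 was the lowest sham library, and without it the log2FC was 0.94 and the call held.

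*sec23a*, the other SEC23 paralogue, had 53.6, 69.4 and 38.4 CPM at 2 hpi and 28.3 to 54.5 CPM in sham, and its libraries overlapped. Its log2FC was 0.32 ± 0.22 (SE, FDR = 0.495). The difference between the paralogues was not tested.

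The SEC24 proteins select cargo for COPII vesicles, and all 4 genes for them had a positive log2FC. *sec24d* had 154.4, 151.1 and 151.0 CPM at 2 hpi, and a sham median of 102.2 CPM with a range of 88.2 to 127.0 CPM. The groups did not overlap, and the 2 hpi libraries lay close together. Its log2FC was 0.55 ± 0.14 (SE) with FDR = 0.0223, and without sham replicate 3, the highest of the sham libraries, the FDR was 0.00825. *sec24c* had 148.5, 124.4 and 149.1 CPM at 2 hpi and 78.8 to 139.7 CPM in sham, with a log2FC of 0.50 ± 0.16 (SE, FDR = 0.0718). For *sec24c* too, sham replicate 3 was the highest sham library and the only one above 2 hpi replicate 2. *sec24a*, with the most CPM of the COPII genes, averaged 311.0 ± 16.6 CPM at 2 hpi and 268 ± 46.6 CPM in sham (SD, n = 3 and 6), a log2FC of 0.23 with a 95% interval of -0.05 to 0.50. For *sec24b* the log2FC was 0.10, and the interval was -0.20 to 0.39.

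The outer coat and the exit site scaffold did not follow *sec23b*. *sec13* and *sec31a*, which encode the outer COPII cage, had log2FC of 0.26 and 0.18, whereas *sec31b* had 105.1, 93.0 and 85.2 CPM at 2 hpi and 99.6 to 192.2 CPM in sham, a log2FC of -0.36 ± 0.18 (SE, FDR = 0.31). *sec16b*, a scaffold of ER exit sites, had the lowest log2FC of all 69 genes. It had 2.13, 3.11 and 4.11 CPM at 2 hpi, against 4.88 to 10.4 CPM in sham with a median of 7.95 CPM, which is 14 to 76 reads a library. Its groups did not overlap, and the log2FC was -1.19 ± 0.38 (SE) with FDR = 0.0727. Under other settings the FDR ran from 0.0299 (DESeq2) to 0.138 (no filter), and with 1 library left out from 0.0528 to 0.247. *sec22a*, *sec22ba*, *sec22bb* and *sec22c*, which encode or resemble a SNARE of ER-to-Golgi transport, ran from -0.66 to 0.31, all with 95% intervals that included 0. Over the 14 genes of COPII and ER exit, 9 were above 0 with a median of 0.20, and their summed CPM was 1208 ± 19.4 at 2 hpi (SD, n = 3) and 1020.0 ± 113 in sham (SD, n = 6), with sham replicate 3 above every 2 hpi library.

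**Figure D3:**
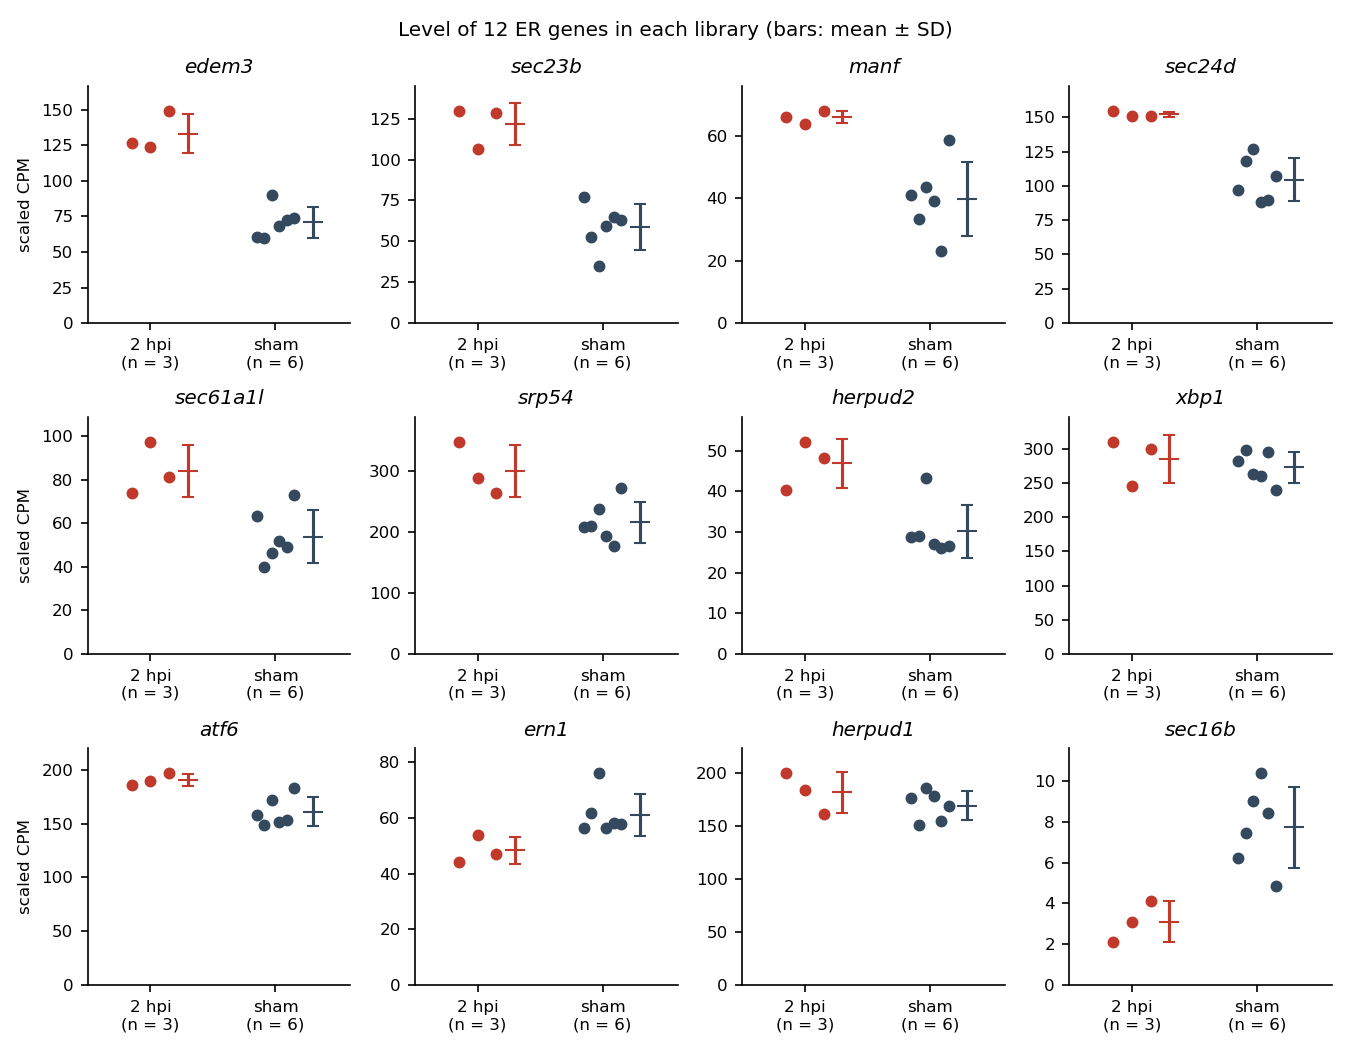
Points give scaled CPM (y axis, starting at 0) of 12 ER genes in each library, 2 hpi in red and sham in blue, with the mean and SD beside them. The 2 hpi points lie above every sham point for *edem3*, *sec23b*, *manf*, *sec24d*, *sec61a1l* and *atf6*, below every sham point for *ern1* and *sec16b*, and overlap sham for *srp54*, *herpud2*, *xbp1* and *herpud1*.

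At the entry side, all 6 genes of the translocon were above 0, with a median log2FC of 0.34. Counts above 0 for each role or list refer to the deposited scaling and were not made with library size alone, which lowers the log2FC. *sec61a1l* (ENSDARG00000005675), which encodes an alpha subunit of the Sec61 channel, had 73.8, 97.0 and 81.1 CPM at 2 hpi, and a sham median of 50.4 CPM with a range of 39.9 to 73.0 CPM. The groups did not overlap, but 2 hpi replicate 1 and sham replicate 6 were nearly equal. The log2FC was 0.66 ± 0.18 (SE) with FDR = 0.0376. *sec61a1*, the paralogue with the most CPM of all 69 genes, averaged 1107 ± 173 CPM at 2 hpi and 947 ± 122 CPM in sham (SD, n = 3 and 6), and its log2FC of 0.22 had a 95% interval of -0.02 to 0.47. Reads of these near-identical paralogues may have been divided between them in counting, so the split is uncertain.

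Among the small Sec61 subunits and partners, *sec61g* (gamma) had 18.8, 20.5 and 23.9 CPM at 2 hpi and 10.2 to 16.4 CPM in sham. *sec63*, whose J-domain protein recruits the chaperone BiP to the channel, had 126.5, 134.5 and 159.5 CPM at 2 hpi and 100.7 to 119.6 CPM in sham. Neither overlapped between groups, and the log2FC were 0.64 ± 0.25 (SE, FDR = 0.175) and 0.31 ± 0.13 (SE, FDR = 0.208). *sec61b* (beta) had a log2FC of 0.36 and *sec62*, the partner of *sec63* in post-translational import, 0.05, and both intervals included 0.

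The SRP genes split evenly, with 3 above 0 and 3 below. *srp54*, which encodes the GTPase subunit that binds the signal sequence, had 347.4, 289.4 and 263.8 CPM at 2 hpi, and a sham median of 208.9 CPM with a range of 177.4 to 272.4 CPM. The groups overlapped, since sham replicate 6 lay above 2 hpi replicate 4. Its log2FC was 0.47 ± 0.14 (SE) with FDR = 0.0418. *srp72* and *srp68*, which encode partner subunits of the particle, had log2FC of 0.12 and -0.13. *srp19*, an assembly subunit, had 12.9, 12.4 and 7.48 CPM at 2 hpi and a sham median of 13.7 CPM, with a range of 11.3 to 32.3 CPM set by sham replicate 3. Its log2FC was -0.50 ± 0.32 (SE, FDR = 0.464), and the low-count *srp9* and *srp14*, which form the domain that slows elongation, had -0.18 ± 0.44 and 0.40 ± 0.48 (SE).

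The complexes that work beside the channel had medians above 0, and none of their genes passed FDR<0.05. The translocon-associated protein (TRAP) genes *ssr1* to *ssr4* were all positive, with a median of 0.24, but with library size alone *ssr1* was at -0.02. *ssr4* had 134.4, 118.0 and 98.5 CPM at 2 hpi and 79.3 to 100.3 CPM in sham (log2FC 0.39 ± 0.15 SE, FDR = 0.14), and *ssr1*, with the most CPM of the 4, averaged 424 ± 68.7 CPM at 2 hpi and 402 ± 98.0 CPM in sham (SD, n = 3 and 6). The oligosaccharyltransferase subunits *ddost*, *rpn1* and *rpn2* had log2FC of 0.19, 0.15 and 0.13, and *rpn2* averaged 286 ± 14.6 CPM at 2 hpi and 262 ± 11.7 CPM in sham (SD, n = 3 and 6). Among the signal peptidase genes, *spcs1*, *spcs3* and *sec11a*, the catalytic subunit, were positive with standard errors of 0.36, 0.29 and 0.21, and *spcs2*, with the most CPM, was at -0.01.

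The folding machinery showed small differences. The lectin chaperone genes *canx*, *calr*, *calr3a* and *calr3b* had log2FC between 0.15 and 0.20. *canx*, which encodes the membrane-bound calnexin, had 884.9, 1035 and 876.1 CPM at 2 hpi, and a sham median of 864.2 CPM with a range of 663.4 to 962.6 CPM. Its groups overlapped and its log2FC was 0.16, with a 95% interval of -0.08 to 0.41. Of the 7 disulfide formation genes, 5 were above 0 and the median was 0.03. *pdia3*, the isomerase that works with calnexin and calreticulin, had 482.7, 767.6 and 467.6 CPM at 2 hpi and 445.4 to 640.7 CPM in sham, so that 2 hpi replicate 2 alone lay above sham. Its log2FC was 0.02 (95% interval -0.27 to 0.32). The oxidase genes *ero1a* and *ero1b*, which recharge the isomerases, had log2FC of -0.27 and 0.09, and *pdia2* had 0 to 44 reads a library, too few for a difference of this size to be detectable.

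The sensors of the unfolded protein response did not pass the test, and their log2FC had both signs. *xbp1*, the transcription factor gene whose mRNA is spliced by IRE1, had 309.2, 245.3 and 300.1 CPM at 2 hpi, and a sham median of 272.2 CPM with a range of 240.1 to 298.0 CPM. The groups overlapped: 2 hpi replicates 1 and 4 lay just above the highest sham library, whereas replicate 2 was among the lowest of all 9. Its log2FC was 0.06 ± 0.12 (SE), with a 95% interval of -0.19 to 0.30 and FDR = 0.865. Counts per gene do not separate the spliced from the unspliced form.

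*atf6*, which encodes the membrane-tethered transcription factor cleaved on ER stress, had 185.9, 189.6 and 196.6 CPM at 2 hpi, and a sham median of 156.0 CPM with a range of 148.3 to 183.4 CPM. Every 2 hpi value exceeded every sham value, by little in the case of sham replicate 6. The log2FC was 0.25 ± 0.12 (SE, FDR = 0.298). *ern1*, the gene of the sensor IRE1, had 44.0, 53.7 and 47.1 CPM at 2 hpi, and a sham median of 58.0 CPM with a range of 56.3 to 75.9 CPM. Here every 2 hpi value was below every sham value, and the log2FC was -0.33 ± 0.16 (SE, FDR = 0.295). *ATF6B*, the paralogue of *atf6*, had a log2FC of -0.09. Without overlap, 9 of the 69 ER genes lay above sham (13%, against 5.68% of all tested genes) and 3 below (4.35%, against 4.55%). Of the 4378 tested genes of a like level, 393 lay above sham without overlap and 275 below, in both directions a larger share than of all tested genes. The share above was smaller than that of the ER genes, and the share below was larger. All statements of overlap refer to the deposited scaling, and overlap was not counted with library size alone. The TMM factors were 0.932 to 0.953 at 2 hpi and 0.976 to 1.06 in sham. Library size alone thus lowers the 2 hpi values relative to sham, and small gaps such as those of *atf6* and *sec61a1l* may not hold.

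*manf* (ENSDARG00000063177) encodes an ER-resident protein that is secreted on ER stress and protects neurons in mammals. It had 66.2, 64.0 and 67.9 CPM at 2 hpi, and a sham median of 40.0 CPM with a range of 23.2 to 58.8 CPM. The 2 hpi libraries lay close together and above the sham libraries, which were spread more widely. The means were 66.0 ± 1.97 CPM at 2 hpi (SD, n = 3) and 39.9 ± 11.8 CPM in sham (SD, n = 6), and the log2FC was 0.77 ± 0.22 (SE; 95% interval 0.32 to 1.22) with FDR = 0.0371. The FDR was 0.00986 without sham replicate 6, the highest sham library, and 0.0624 without sham replicate 5, the lowest, where the log2FC was 0.63. It was 0.115, 0.0857 and 0.132 without 2 hpi replicates 1, 2 and 4, and above 0.05 in 7 of the 9 fits that left out a library. The other genes with FDR between 0.01 and 0.05 were also fitted with 1 library left out in turn. Their FDR reached 0.0861 for *sec24d*, 0.179 for *sec61a1l* and 0.237 for *srp54*. The log2FC of *srp54* stayed positive. That of *sec24d* and *sec61a1l* could not change sign in these fits, since their groups did not overlap.

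**Figure D4:**
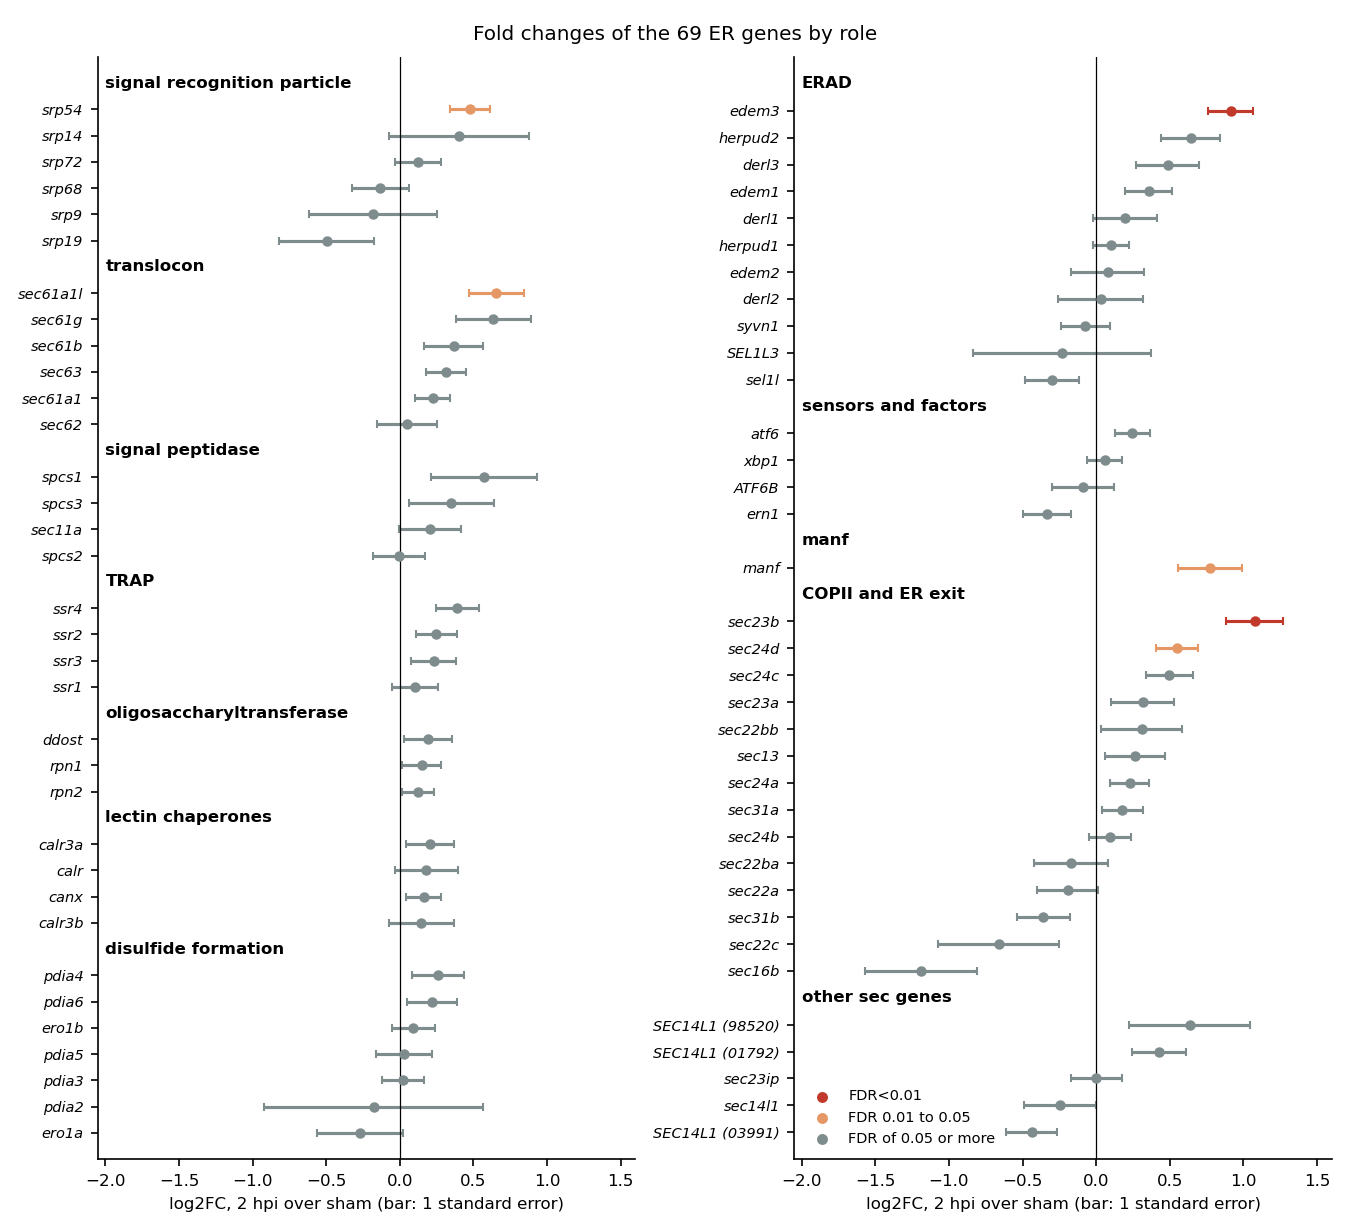
Points show the log2FC of 2 hpi over sham (x axis) of each of the 69 ER genes, grouped by role, with bars of 1 standard error. *edem3* and *sec23b* (red, FDR<0.01) lie furthest to the right and *sec16b* furthest to the left, and *manf*, *sec24d*, *sec61a1l* and *srp54* (orange) have FDR between 0.01 and 0.05. The numbers beside *SEC14L1* are the last 5 digits of each gene ID.

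The name patterns gave 5 genes none of the roles above. Of these, *sec14l1* and 3 genes that the table calls *SEC14L1* (1 to many) are related to lipid transfer proteins of the Sec14 family. They are not related to the secretory pathway steps above. Of these 3, ENSDARG00000101792 had 39.8, 52.5 and 51.3 CPM at 2 hpi and 28.1 to 38.5 CPM in sham, whereas ENSDARG00000103991 had 40.1, 37.6 and 32.6 CPM at 2 hpi and 40.4 to 54.5 CPM in sham. Both were free of overlap, in opposite directions, with log2FC of 0.43 (FDR = 0.211) and -0.44 (FDR = 0.166), and reads of such copies may have been divided between them in counting. *sec23ip*, which encodes a SEC23-binding protein, had 74.3, 53.6 and 53.4 CPM at 2 hpi and 48.7 to 69.5 CPM in sham, with a log2FC of 0.00. Its product binds a COPII subunit, but the name patterns left it out of the 14 genes of COPII and ER exit. Without these 5 genes the median of the ER genes stayed at 0.18, with 48 of 64 above 0.

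Other genes of the same pathways, taken from 3 lists of 110 symbols that the name rule did not reach, were read for comparison. Of 31 tested genes for ER chaperones and the stress response, 22 were above 0 with a median log2FC of 0.17, and *trib3*, which encodes a pseudokinase induced by ER stress in mammals, passed FDR<0.01. *trib3* had 47.5, 75.9 and 52.1 CPM at 2 hpi, and 23.5 to 36.1 CPM in sham. The groups did not overlap and the log2FC was 0.95 ± 0.20 (SE, FDR = 0.00507), but the limma FDR was 0.0164 with library size alone, 0.0122 without sham replicate 2, 0.0637 without 2 hpi replicate 2 and 0.019 without 2 hpi replicate 4. *hspa5*, which encodes the main ER chaperone BiP and was named for that role after its values were seen, as were the other genes of this paragraph apart from *trib3*, had 648.7, 431.0 and 493.1 CPM at 2 hpi and 272.9 to 570.4 CPM in sham. Its log2FC was 0.46 ± 0.17 (SE, FDR = 0.121). The groups overlapped through sham replicate 1 alone, and without it the log2FC was 0.58 (FDR = 0.0156), whereas without 2 hpi replicate 1, the highest library, it was 0.30 (FDR = 0.479). The chaperone genes *hyou1*, *dnajb11* and *hsp90b1* had log2FC of 0.53, 0.47 and 0.21, with FDR of 0.0661, 0.0784 and 0.534. *ddit3* (CHOP), a target of the PERK branch, had 0.29 and *eif2ak3*, the gene of PERK itself, 0.03. In the same list, 9 genes had a log2FC below 0. The lowest was *traf2a*, at -0.99 (FDR = 0.0553), whereas *traf2b* went the other way, at 0.53 (FDR = 0.0966). Neither of them overlapped between groups. *ppp1r15a*, *ppp1r15b*, *txndc5* and *atf4a* had -0.47, -0.45, -0.15 and -0.13, with FDR of 0.32, 0.65, 0.75 and 0.70.

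Of 33 tested genes for translocation, glycosylation and ERAD, 22 were above 0 with a median of 0.14 and 0 passed FDR<0.01. *srpr*, which encodes the SRP receptor alpha subunit, had 77.1, 66.1 and 77.6 CPM at 2 hpi and 39.9 to 62.1 CPM in sham, without overlap, and a log2FC of 0.64 ± 0.17 (SE, FDR = 0.0299). *srprb*, the beta subunit that anchors it, had -0.13. Of 28 tested genes for ER exit, 25 were above 0 with a median of 0.22, and 0 passed FDR<0.05. At an unadjusted limma p below 0.05, 3 genes of each of these lists were higher (9.09% and 10.7%, near the 8.77% of all tested genes) and 0 were lower. Among the chaperones and stress genes 9 were higher (29%) and 1, the adaptor gene *traf2a*, was lower (3.23%, against 8.61% of all tested genes).

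**Figure D5:**
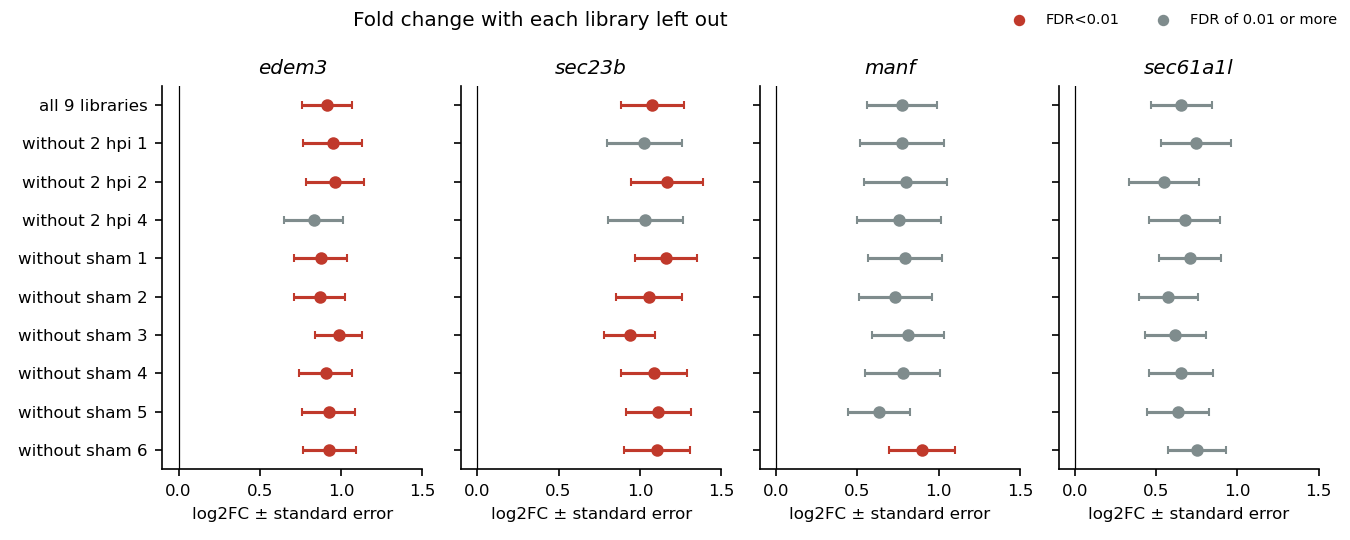
The log2FC of 4 ER genes (x axis, bars of 1 standard error) is shown with all 9 libraries and with each library left out in turn (rows), red where FDR<0.01. *edem3* ranged from 0.83 to 0.99, *sec23b* from 0.94 to 1.17, *manf* from 0.63 to 0.90 and *sec61a1l* from 0.55 to 0.75. The groups did not overlap for these 4 genes, so leaving out 1 library could not reverse the direction. The call of *edem3* was lost in 1 and that of *sec23b* in 2 of the 9 fits.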

How the data were processed

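The signal values deposited by the authors are CPM scaled with TMM factors, 1 per gene and library. Per the submitters' processing notes, the tools were cutadapt 1.9, STAR 2.5.2b, featureCounts 1.5.1 and edgeR 3.20.1, with the GRCz10 genome. Reads were summed per gene over exons, genes with mostly near-zero counts were removed, and the annotation release and strand setting are not given in the sources used here. CPM is not divided by gene length, so statements of which gene had the most CPM, or of a like level, refer to reads and not to RNA molecules. The file also holds group means, log2FC, p-values and FDR from the authors' own comparison, which were not used.

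The table held scaled CPM and no counts, so limma was used as planned. A count test was planned as the main test only for a table of whole counts. Genes whose mean over the 9 libraries reached 1 CPM were fitted on log2(CPM + 0.5) with a variance trend and group as the only factor (limma 3.58.1, R 4.3.3), and p-values were adjusted by Benjamini-Hochberg over 16347 genes, with FDR<0.01 as the threshold. Fold changes are on this log2(CPM + 0.5) scale, which understates changes of low genes. Whole reads were recovered from the values, 100% of them whole within 0.1 read, and fitted with the quasi-likelihood F-test of edgeR 4.0.16 and with DESeq2 1.42.0 as alternatives. Other alternatives were RLE scaling, library size alone, filterByExpr or no filter, pseudocounts of 0.1 and 1, FDR<0.05, a replicate block and leaving out each library. Single genes were also compared by a two-sided exact permutation test (Python 3.11.15, numpy 2.4.6). Only the limma fit with group as the factor was tested on simulated data, and the alternatives were not.

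Roles were assigned by name. Named with values were genes past the threshold, the 3 highest and 3 lowest log2FC of the rest with a mean of at least 5 CPM, the gene with the most CPM in each role, *xbp1*, *atf6*, *ern1*, *manf* and *herpud1*, and genes of the other lists past the threshold. All others named were chosen after their values were seen. The genes and lists were chosen with earlier results of these data known. Of the 69 gene IDs, 65 were found in the name table. A planned search of promoters was not run. The labels do not say which libraries came from separate clutches or days, so p-values measure the spread between these libraries, which may be technical. Same-group libraries differed beyond counting noise (chi-square per gene of 10.4 to 19.7).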

Additional observations from a re-analysis of the deposited data

Results flagged for a closer look

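Sham values of 29 genes and of 13 summed groups were examined for a library far from the other 5, which makes 42 values, and chance flags about 1 in 20. There were 5 such values. Sham replicate 3 was far above the rest for *herpud2* (43.37 CPM), *ern1* (75.91 CPM), *srp19* (32.27 CPM) and the summed CPM of the COPII and ER exit genes (1241). Sham replicate 5 was far below the rest for the summed CPM of the oligosaccharyltransferase genes (505.2). Without sham replicate 3, the log2FC of *herpud2* was 0.75 with a limma FDR of 0.0153, that of *ern1* was -0.27 and that of *srp19* was -0.28, and neither *ern1* nor *srp19* passed FDR<0.05. What set these libraries apart was not tested.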

How the results depend on the processing

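The number of ER genes higher at FDR<0.01 was 2 in the reported fit and 6 at FDR<0.05. It was 4 with the replicate block, which added *manf* (FDR = 0.008) and *srp54* (FDR = 0.00504), or 5.8% of the ER genes against 2.9% of all tested genes, since the block called 619 genes in all, 474 of them higher. Outside the 69 genes, the block also brought *dnajb11* (FDR = 0.00189) and *srpr* (FDR = 0.00446) past the threshold, while *trib3* was no longer past it (FDR = 0.0101). With 1 library left out, 0 to 3 ER genes were higher (0 to 4.35%, against 1.11 to 2.32% of all tested genes). The count was 0 without 2 hpi replicate 4 and 1 without 2 hpi replicate 1. DESeq2 added *sec24d* (FDR = 0.00474), which made 3 ER genes (4.35%, against 3.12% of all tested genes). Outside the 69, it also called *srpr* (FDR = 0.00784). The number lower at FDR<0.01 was 0 under every setting run. With library size alone, the median log2FC of the ER genes was 0.06, against 0.18 in the reported fit and 0.12 to 0.20 with 1 library left out. Over all genes, 438 were called, 740 with DESeq2, 900 at FDR<0.05 and 224 to 487 with 1 library left out. The lower calls, 97 of these, were 60 with edgeR, 230 with DESeq2, 191 with library size alone and 61 with no filter, and the share of higher calls was 77.9%, against 57.4% with library size alone, 68.9% with DESeq2 and 64.4% at FDR<0.05. The causes were not tested.

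Replicate numbers are shared between the groups, but deviations of same-numbered libraries correlated by 0.124, 0.109 and 0.0244, and 2 hpi replicates 1 and 2 correlated best with the sham library of their own number, whereas replicate 4 matched sham replicate 3 best (0.0277). This is a hint from the data. The study describes pairs of injured and sham cDNA samples made on the same day for its RT-qPCR. For 3 of these pairs the samples were also sequenced, so the injured and sham sample of each such pair shared a day. The study does not say whether these samples are among the 9 libraries used here. The study does not tie the pairs to replicate numbers, so whether the numbers pair the libraries cannot be settled here. The libraries were treated as unpaired in the reported fit. With 3 libraries at 2 hpi, differences of the size seen in most ER genes (median SE 0.18) were not detectable one by one, and *SEL1L3* and *pdia2* were limited by read depth.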
